A study of Homo sapiens with 38 samples.

Results

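Naive human embryonic stem cells of the line Shef6 were moved from the naive medium PXGL into E8 or into N2B27, and the RNA of both was compared at days 2 and 3. The comparison held the 8 libraries that the labels give as E8 or N2B27 at these days, 8 of the 38 libraries of the series, in 4 groups of 2. All cells had been adapted to growth on a serum coating, carry no genetic change in the labels, and were plated on Geltrex, a basement membrane matrix, in 1 experiment, with a ROCK inhibitor at plating. N2B27 is a basal medium of the N2 and B27 supplements with no added growth factor, and E8 is a commercial medium that holds FGF2 and a ligand of the TGF-beta family. Both media differ in their base as well as in growth factors, so a difference between them cannot be assigned to 1 component. The cells are 1 line, and the study calls such replicates technical in some places and biological in another, so p-values measure the spread between parallel libraries of 1 experiment. RNA was read by 3′ tag sequencing, and the total count per library lay between 3143033 and 5014703.

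Naive cells resemble the epiblast of the early blastocyst, and on loss of the naive signals they pass through capacitation, a formative phase after which they can respond to lineage cues. Nodal and Activin act through SMAD2, SMAD3 and FOXH1 and hold human pluripotency, and they switch on their own feedback inhibitors LEFTY1 and LEFTY2 as well as NODAL itself. FGF acts through ERK and switches on feedback genes such as the SPRY and DUSP families. In the embryo a strong Nodal and WNT signal opens the primitive streak programme, with TBXT and MIXL1 among its first genes.

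A difference between libraries that crosses the media was present. On the first principal axis of the replicate-to-replicate differences (called the library score, in arbitrary units), both E8 day 2 libraries, E8 day 3 replicate 1 and N2B27 day 2 replicate 2 scored 22.9 to 27.1. The other 4 of the 8 scored -5.94 to 9.95, and the 30 other libraries of the series -14.6 to 10.1. Pseudogenes took 1.62% to 2.05% of the counts in the 4 high-scoring libraries and 1.16% to 1.4% in the other 4. Of the E8 libraries 3 of 4 scored high against 1 of 4 of N2B27, so the score and the medium are partly confounded. Results are therefore given also for 6 matched libraries, in which both E8 day 2 libraries face N2B27 day 2 replicate 2 and E8 day 3 replicate 2 faces both N2B27 day 3 libraries. Called the 6 matched libraries from here on, they leave out E8 day 3 replicate 1 and N2B27 day 2 replicate 1.

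Which genes differed between the media was asked with the day as a covariate. Of 14471 genes tested, 251 were called, at a Benjamini-Hochberg adjusted p under 0.05 in edgeR's quasi-likelihood test and more than a 2-fold difference, which is 1.73% of those tested. In E8 191 were higher (1.32% of all tested) and 60 were lower (0.415%). The 251 genes all had the same sign at both days, where 65.12% of all genes tested did. At any fold 687 genes passed the adjusted threshold (4.75%), 426 higher (2.94%) and 261 lower (1.8%). The libraries of the media did not overlap within either day for 163 of the 191 higher genes, beside 7.37% of all genes tested, and for 59 of the 60 lower genes, beside 11.3%. The 62 protein-coding genes that were higher had a median log2 fold change of 1.51, and the 50 that were lower one of -1.19. The median level of the called higher genes was 13.6 CPM in E8 and 4.72 CPM in N2B27. In the 6 matched libraries, which keep 3 of the 4 high-scoring ones, 94 genes were called (64 higher, 30 lower), 73 of them among the 251. Leaving out all 4 would leave no E8 library at day 2. Of 33 named genes that passed the adjusted threshold below 2-fold, 9 still passed it in the 6 matched libraries and all 33 kept their sign there. With the library score as a covariate 247 genes were called, 195 of them among the 251. Under all 18 other settings 46 of the 251 stayed called (33 higher, 13 lower).

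Of the higher genes 55 and none of the lower ones were pseudogenes, which made up 5.61% of the genes tested. Reads of a pseudogene may not be told from those of its parent gene, so their calls are uncertain. Their share of counts followed the library score at days 2 and 3. At day 4 of the same experiment it was 1.48% and 1.4% in E8 and 1.23% and 1.14% in N2B27. In the 6 matched libraries 6 of the pseudogenes stayed called, against 42 of the 112 called protein-coding genes.

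Taken day by day, 151 genes were called at day 2 (1.04% of those tested) and 32 at day 3 (0.221%), and 14 were called at both, all with 1 sign. The test of the difference between days called no gene at an adjusted p under 0.05 (smallest 0.895), with 751 genes at an unadjusted p under 0.05, and the same test in a fit to all 38 libraries gave 36 genes, 1 of them among the 251. A gene called at 1 day only is therefore not shown to differ between the days.

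**Figure D1:**
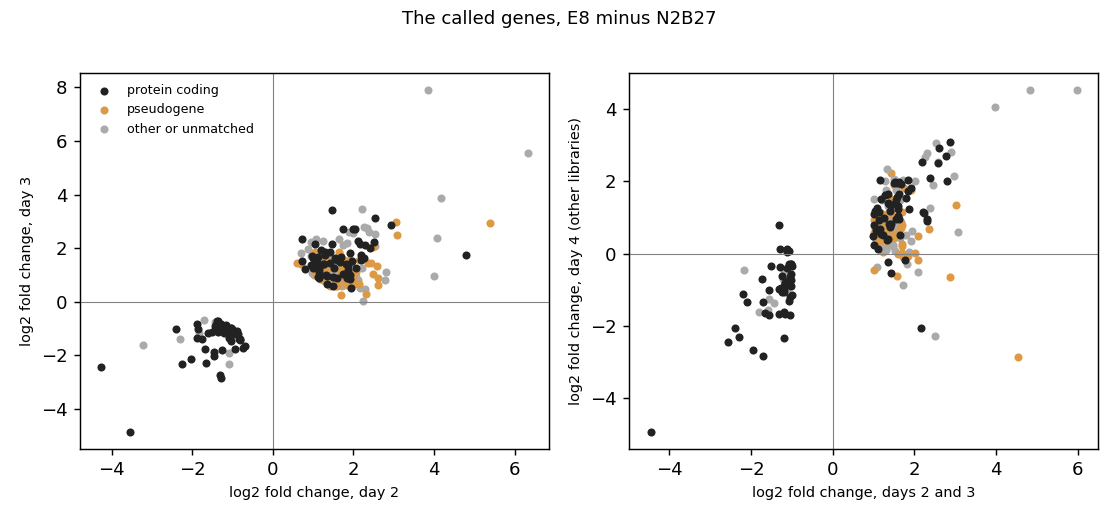
The 251 called genes as points, coloured by gene type, with log2 fold change (E8 minus N2B27) at day 2 against day 3 on the left, and over days 2 and 3 against day 4, in other libraries, on the right. On the left all points have 1 sign on both axes; on the right 174 of the 191 higher and 55 of the 60 lower genes keep their side.

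Genes that respond to Nodal were lower in E8. LEFTY2 and LEFTY1, secreted inhibitors of Nodal, and NODAL itself were all called lower, 3 of the 9 tested genes of the Nodal and TGF-beta target list (12 listed; TGFBI, LDLRAD4 and CER1 were too low to test), and 8 of the 9 had a negative fold change. Of all genes tested 0.415% were called lower and 48.8% had a negative fold change. The list's median log2 fold change was -0.71, beside 0.01 over all genes tested. In the Nodal pathway component list, 0 of 11 tested genes were called or passed the adjusted threshold at any fold, and its median was -0.10.

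LEFTY1 (chromosome 1, 225886282 to 225911382, minus strand, GRCh38) stood at 56.9 and 39.0 CPM in N2B27 and at 9.26 and 9.77 CPM in E8 at day 2. At day 3 it was at 90.7 and 130.6 CPM in N2B27 and 15.6 and 27.6 CPM in E8. Every E8 library lay below every N2B27 library, and naive cells of the same experiment, on serum coating or Geltrex, held 73.0 ± 11.7 CPM (SD, n = 4). Its log2 fold change was -2.30 (SE 0.21, adjusted p = 6.70e-05), and -1.97 in the 6 matched libraries.

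LEFTY2 (chromosome 1, 225936598 to 225941383) had 5, 0, 2 and 9 reads in the 4 E8 libraries and 70, 27, 140 and 188 reads in the 4 of N2B27. In N2B27 it was at 14.1 and 6.50 CPM at day 2 and at 35.0 and 37.7 CPM at day 3, and in naive cells at 104.4 CPM. The log2 fold change was -4.46 (SE 0.46, adjusted p = 2.93e-04), the largest fall among the called genes, and -3.82 in the 6 matched libraries, with a range of -5.03 to -3.82 over 18 settings. LEFTY1 and LEFTY2 are close copies in their coding part, so how reads were split between them is uncertain.

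NODAL (chromosome 10, 70431936 to 70447951) was at 37.7 and 38.1 CPM in E8 and at 124.6 and 79.4 CPM in N2B27 at day 2. At day 3 it was at 70.0 and 106.0 CPM in E8 and 165.7 and 197.3 CPM in N2B27. The media did not overlap within either day, although E8 day 3 replicate 2 lay above N2B27 day 2 replicate 2. Naive cells held 193.2 CPM of NODAL. Its log2 fold change was -1.18 (SE 0.17, adjusted p = 0.00217), and -0.86 in the 6 matched libraries (adjusted p = 0.00790), under the 2-fold limit there.

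PMEPA1, an inhibitor of TGF-beta signalling, fell by less than the 2-fold limit (log2 fold change -0.88, adjusted p = 0.00524). SMAD7, another inhibitor, had -0.48 (adjusted p = 0.0645) and BAMBI, a decoy receptor, -0.51 (adjusted p = 0.0949), with no overlap between media within a day for either. Among components, the ligand GDF3 had a log2 fold change of -0.38, the receptor ACVR1B -0.74 and the transducer SMAD3 -0.47, with adjusted p of 0.0716, 0.0738 and 0.117. The co-receptor TDGF1 was at 277.4 CPM in E8 and 279.4 CPM in N2B27, and FOXH1 at 98.7 and 111.5 CPM.

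DACT1, a regulator of WNT signalling, was next among the lower genes named by rule (at least 20 CPM in the higher medium and no overlap within a day). It was at 12.7, 11.03, 17.6 and 23.9 CPM in the 4 E8 libraries and at 52.0, 32.5, 57.5 and 54.1 CPM in N2B27. Its log2 fold change was -1.56 (SE 0.19, adjusted p = 7.87e-04), and -1.28 in the 6 matched libraries. No E8 library reached the lowest N2B27 library.

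The primitive streak genes TBXT and MIXL1 were lower in E8, 2 of the 3 genes of that list that could be tested, where 0.415% of all genes tested were called lower. The other, LHX1, had a log2 fold change of 0.07 (adjusted p = 0.951). EOMES, GSC, MESP1, MESP2, TBX6 and FOXA2, of 9 genes listed, were too low to test. EOMES had 7, 9, 6 and 7 reads in E8 and 11, 6, 7 and 10 in N2B27. MIXL1, a homeobox gene of the early streak, had 8, 5, 14 and 16 reads in E8 and 40, 18, 43 and 71 in N2B27. It averaged 2.76 CPM in E8 and 9.33 CPM in N2B27, beside 16.97 CPM in naive cells. Its log2 fold change was -1.71 (SE 0.31, adjusted p = 0.00817), and in the 6 matched libraries it was -1.51 (adjusted p = 0.0648). TBXT, the T-box factor of the streak, rested on 0, 0, 5 and 2 reads in E8 against 2, 3, 10 and 31 in N2B27. It averaged 0.408 CPM in E8 and 2.46 CPM in N2B27, beside 0.193 CPM in naive cells. It was called at an adjusted p of 0.0441 and lost the call in 9 of 16 settings, with log2 fold changes between -3.48 and -1.97. These included the 6 matched libraries (-3.48, adjusted p = 0.0817) and the fit without N2B27 day 3 replicate 2 (-1.97, adjusted p = 0.263). SP5, a zinc finger gene of the WNT target list, had a log2 fold change of -1.65 and missed the threshold (adjusted p = 0.0518). It had -1.01 (adjusted p = 0.248) in the 6 matched libraries. Over 17 settings it gained the call in 7, with log2 fold changes between -2.47 and -1.01. At day 4, in other libraries, TBXT, MIXL1 and SP5 had log2 fold changes of -2.44, -2.83 and -3.28 (adjusted p of 3.65e-07, 1.31e-08 and 1.92e-07).

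**Figure D2:**
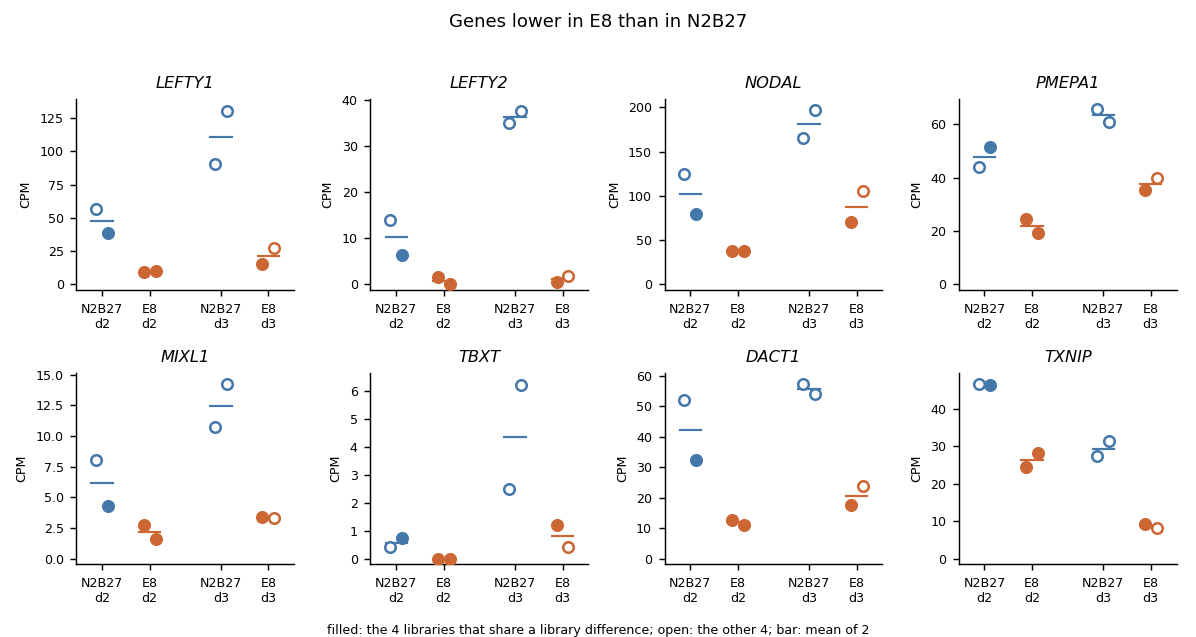
Level (CPM) of 8 genes lower in E8 in each of the 8 libraries by medium and day, with a bar at the mean of 2. The E8 points lie below the N2B27 points of the same day in every panel; LEFTY2 is at 0 to 1.85 CPM in E8 and at 6.50 to 37.7 CPM in N2B27.

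The starts of NODAL, MIXL1 and DACT1 are printed because these genes were lower together, and NODAL and MIXL1 answer to Nodal signalling in textbook accounts. RefSeq promoter windows of 300 bases (250 before and 50 after the start, GRCh38.p14) matched 9731 of the 14471 tested symbols, and LEFTY1 and LEFTY2 were not among them. Capitals mark the FOXH1 letters TGTNNATT and the SMAD box CAGAC, each searched on both strands.
NODAL, chr10:70441632-70441931, minus strand: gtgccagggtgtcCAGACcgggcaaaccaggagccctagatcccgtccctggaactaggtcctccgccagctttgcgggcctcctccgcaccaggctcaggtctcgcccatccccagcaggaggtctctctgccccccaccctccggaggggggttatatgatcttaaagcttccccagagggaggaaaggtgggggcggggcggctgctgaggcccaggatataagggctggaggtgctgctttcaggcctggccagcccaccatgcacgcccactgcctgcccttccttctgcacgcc
MIXL1, chr1:226223414-226223713, plus strand: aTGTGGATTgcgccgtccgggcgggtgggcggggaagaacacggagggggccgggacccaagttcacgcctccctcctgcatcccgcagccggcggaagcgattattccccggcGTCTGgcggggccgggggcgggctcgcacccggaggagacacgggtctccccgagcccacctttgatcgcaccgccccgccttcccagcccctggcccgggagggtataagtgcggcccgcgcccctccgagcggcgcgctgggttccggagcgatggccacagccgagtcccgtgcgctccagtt
DACT1, chr14:58633811-58634110, plus strand: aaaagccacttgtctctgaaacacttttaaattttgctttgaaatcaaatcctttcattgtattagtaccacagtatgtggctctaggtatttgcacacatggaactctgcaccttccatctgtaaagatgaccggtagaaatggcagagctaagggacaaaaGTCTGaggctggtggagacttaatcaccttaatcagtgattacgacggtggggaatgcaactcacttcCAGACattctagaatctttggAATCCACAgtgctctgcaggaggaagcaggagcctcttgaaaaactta
NODAL held 1 SMAD box and no FOXH1 match, MIXL1 held 1 of each, and DACT1 held 2 SMAD boxes and 1 FOXH1 match. Of the windows of all genes tested 42.4% held the SMAD box and 5.34% the FOXH1 letters. Of the 35 lower genes with a window, 20 held the SMAD box and 5 the FOXH1 letters (CNR2, DACT1, FOXP2, MIXL1 and NFIA), and of the 45 higher genes 20 and 6 did. A match is a match of letters only.

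Of the 17 FGF/ERK targets 0 were called, 1 passed the adjusted threshold below 2-fold, and the list's median was 0.19. Of the 8 FGF ligands and receptors tested 0 were called, 1 passed it higher and 1 lower. Of all genes tested 1.73% were called and 4.75% passed the adjusted threshold. SPRY2, a feedback inhibitor of FGF receptors, was higher in E8 (log2 fold change 0.49, adjusted p = 0.0300), at 94.2 to 115.0 CPM in E8 and 68.7 to 91.2 CPM in N2B27. The ETS factor ETV4 had 0.58 (adjusted p = 0.0645), ETV5 had -0.39 (adjusted p = 0.115) and the phosphatase DUSP6 had -0.08 (adjusted p = 0.834). Among ligands and receptors FGFR1 was higher (log2 fold change 0.59, adjusted p = 0.0133) and the ligand FGF4 lower (-0.57, adjusted p = 0.0431). FGFR1 was at 584.6 to 876.7 CPM in E8 and 404.5 to 628.4 CPM in N2B27, so its media overlapped across days but not within them. In the 6 matched libraries the log2 fold change was 0.49 for FGFR1 (adjusted p = 0.0532), 0.42 for SPRY2 (adjusted p = 0.162) and -0.30 for FGF4 (adjusted p = 0.287).

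Of the 7 WNT targets tested 0 were called, and AXIN2, a feedback target, had a log2 fold change of 0.22 (adjusted p = 0.442). Of 9 BMP targets 0 were called and ID3 passed the adjusted threshold. Among all genes tested 1.73% were called and 4.75% passed it. ID3, an inhibitor of basic helix-loop-helix factors, was at 46.0, 42.5, 66.8 and 96.5 CPM in E8 and at 27.7, 19.01, 40.0 and 49.3 CPM in N2B27. It was higher by 0.93 on the log2 scale (SE 0.17, adjusted p = 0.00710), and by 1.201 in the 6 matched libraries. The list's median was -0.12.

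**Figure D3:**
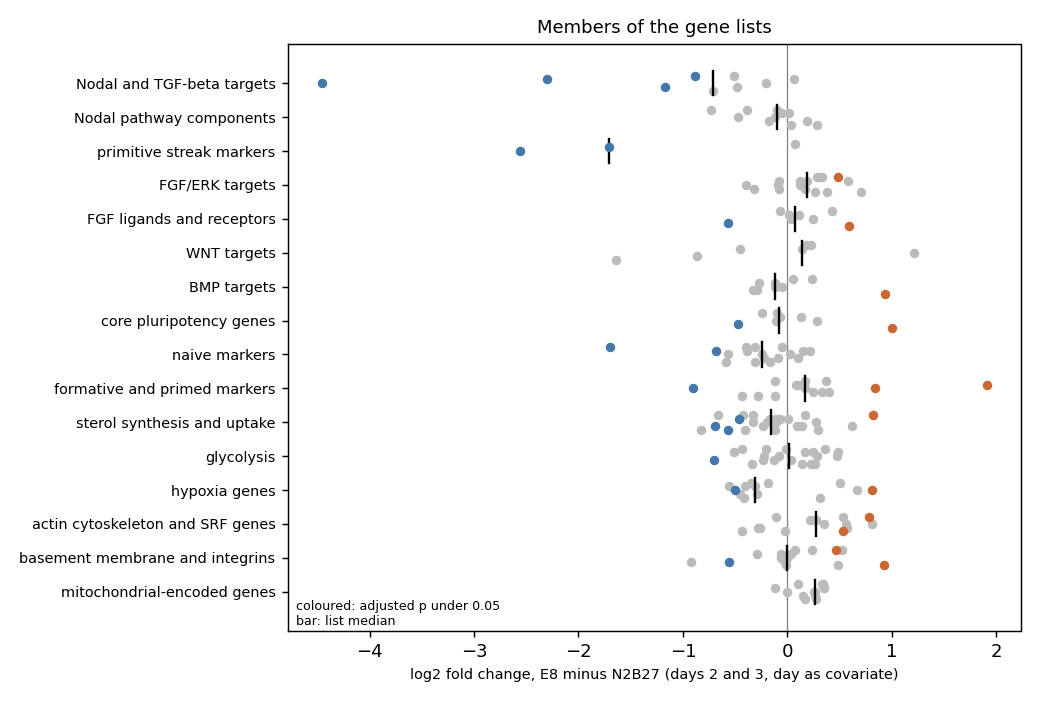
Log2 fold change (E8 minus N2B27 over days 2 and 3) of the tested members of 16 gene lists, 1 point per gene, coloured where the adjusted p was under 0.05, with a bar at each list's median. The Nodal and TGF-beta targets reach -4.46, while the pathway components hold no coloured point.

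Of 8 core pluripotency genes POU5F1 and NANOG passed the adjusted threshold, in opposite directions, where 2.94% of all genes tested passed higher and 1.8% lower. SOX2 was at 371.9 CPM in E8 and 395.9 CPM in N2B27 (adjusted p = 0.799), and the pluripotent marker sum (POU5F1, SOX2, NANOG) was 2010 to 2570 CPM in E8 and 2060 to 2630 CPM in N2B27, so the defining markers were present in all 8. NANOG was lower (log2 fold change -0.47, adjusted p = 0.0254), with 723.2 to 1048 CPM in E8 and 1040 to 1331 CPM in N2B27, and missed the threshold in the 6 matched libraries (-0.34, adjusted p = 0.140). POU5F1 was called higher, at a log2 fold change of 1.00 (SE 0.25, adjusted p = 0.0325), but its levels followed the library score: 1469, 1440 and 1301 CPM in the high-scoring E8 libraries, 1219 CPM in the high-scoring N2B27 library, 527.0 CPM in the other E8 library and 350.7 to 557.7 CPM in the other N2B27 libraries. In the 6 matched libraries its log2 fold change was 0.38 (adjusted p = 0.140), and its call was lost in 15 of 18 settings.

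Of the 17 naive markers tested 1 was called, ARGFX, a homeobox gene of the early embryo at 1.55 CPM in E8 and 5.04 CPM in N2B27 (log2 fold change -1.70, adjusted p = 0.0184; -1.63 and 0.122 in the 6 matched libraries, 1 of 4 settings of 17 that lost the call). KHDC3L, an oocyte and early embryo gene, was lower by less than 2-fold (-0.68, adjusted p = 0.0298; -0.55 and 0.125 in the 6 matched libraries). KLF17 had -0.57 (adjusted p = 0.126; -0.21 in the 6 matched libraries) and TFCP2L1 -0.40 (adjusted p = 0.0802), both naive transcription factors. The list's median was -0.24, and 13 of 17 members were negative, where 0.415% of all genes tested were called lower and 48.8% were negative. The summed naive markers KLF17, DPPA3, DPPA5, SUSD2 and DNMT3L were at 834 to 975 CPM in E8 and 925 to 1080 CPM in N2B27.

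Among 15 formative and primed markers VIM was called higher and SFRP2 and ZIC2 passed the adjusted threshold below 2-fold, in opposite directions. Among all genes tested 1.73% were called and 4.75% passed it at any fold. VIM, an intermediate filament gene, was at 5.15, 14.5, 29.3 and 19.1 CPM in E8 and at 3.01, 1.44, 5.75 and 8.61 CPM in N2B27, beside 0.137 CPM in naive cells. Its log2 fold change was 1.91 (SE 0.33, adjusted p = 0.00537) and 1.83 in the 6 matched libraries. SFRP2, a secreted WNT inhibitor listed at 0 CPM in naive cells, was at 93.9 ± 8.25 CPM in E8 and 54.1 ± 5.17 CPM in N2B27 (SD, n = 4 each), a log2 fold change of 0.84 (adjusted p = 0.00294) in which no libraries overlapped. ZIC2, a zinc finger factor of primed cells, went the other way at 19.9 ± 6.76 and 39.3 ± 16.2 CPM (log2 fold change -0.90, adjusted p = 0.0154; -0.65 and 0.128 in the 6 matched libraries). SOX3, listed with neural markers and related to SOX2, was called lower (-1.07, adjusted p = 0.0147), and its call was lost in 5 of 18 settings, the 6 matched libraries among them (-0.98, adjusted p = 0.0800).

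TXNIP, of the glucose sensing list, and MYLIP, of the LXR list, were called. TXNIP, which limits glucose uptake and rises with glucose, was called lower: 24.4, 28.1, 9.26 and 8.02 CPM in E8 against 46.6, 46.4, 27.3 and 31.2 CPM in N2B27 (log2 fold change -1.20, adjusted p = 0.00524). The glucose transporter SLC2A3, 1 of 20 glycolysis genes to pass the adjusted threshold, was lower too (-0.70, adjusted p = 0.00332). MYLIP, a ubiquitin ligase that removes the LDL receptor and is a target of the sterol sensor LXR, was called higher at 104.2 CPM in E8 and 53.3 CPM in N2B27 (log2 fold change 1.019, adjusted p = 0.00144), close to the 2-fold limit, and lost the call in 6 of 18 settings. Of 25 genes of sterol synthesis and uptake 0 were called, 3 passed the adjusted threshold lower (HMGCS1 -0.69, MSMO1 -0.57 and CYP51A1 -0.46) and 1 higher (SC5D 0.82), where 1.8% of all genes tested passed lower and 2.94% higher. HMGCS1, which feeds the mevalonate pathway, was at 325.5 to 369.5 CPM in E8 and 558.3 to 647.4 CPM in N2B27, and no libraries overlapped. FADS2, a fatty acid desaturase, was higher (0.72, adjusted p = 0.0115). MSMO1, CYP51A1 and FADS2 missed the threshold in the 6 matched libraries (log2 fold changes of -0.53, -0.39 and 0.59, adjusted p of 0.0547, 0.183 and 0.0826), and HMGCS1, SC5D and SLC2A3 passed it.

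In the lists of amino acid, metal and stress genes 0 members were called, where 1.73% of all genes tested were. Some members passed the adjusted threshold below 2-fold, where 4.75% of all genes tested passed it at any fold. ATF3 (0.72) and SHMT2 (0.77) were higher among 19 genes of the ATF4 list, MT1G (0.43) among 8 metallothionein and zinc export genes, TALDO1 (0.51) among 8 NRF2 targets and TNFRSF10B (0.68) among 13 p53 targets. The transferrin receptor TFRC was lower (-0.43), 1 of 5 iron genes tested. The replication helicase subunit MCM6 was lower too (-0.60), the 1 of 15 S phase genes that passed. The 13 hypoxia genes tested split, with NDRG1 higher (0.81) and BNIP3 lower (-0.50), and their list median was 0.16 at day 2 and -0.48 at day 3. All 9 of these genes missed the threshold in the 6 matched libraries with their sign kept, at adjusted p from 0.0525 for SHMT2 to 0.291 for BNIP3. Their log2 fold changes there were 0.67 for ATF3, 0.64 for SHMT2, 0.39 for MT1G, 0.48 for TALDO1, 0.84 for TNFRSF10B, -0.42 for TFRC, -0.54 for MCM6, 0.79 for NDRG1 and -0.30 for BNIP3. The 13 mitochondrial-encoded genes had 11 positive members and a median of 0.26, and 0 passed. Mitochondrial genes took 3.39% to 3.63% of the counts in the 4 high-scoring libraries and 2.55% to 3.46% in the other 4, and the part of the library score in this list was not tested. In the lists of unfolded protein response, glucocorticoid, insulin and FOXO, LIF and STAT3, lipid droplet, G2/M and DNA methylation genes 0 members passed.

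Of the matrix genes COL1A2 was called lower and COL6A1 higher. COL1A2, a fibrillar collagen chain, was called lower, with 15.8, 20.8, 29.5 and 29.4 CPM in E8 and 44.4, 36.8, 69.2 and 77.3 CPM in N2B27 (log2 fold change -1.20, adjusted p = 8.75e-04, and -1.13 in the 6 matched libraries). It is a fibroblast marker, while LUM was at 0 in all 8 libraries and COL3A1 and DCN had 0 to 2 reads. The sum of COL1A1, COL1A2, COL3A1, DCN and LUM was 18.9 to 39.1 CPM in E8 and 41.9 to 84.9 CPM in N2B27. Most of this sum was COL1A2, so it is no separate reading. COL1A1 was at 5.84 CPM in E8 and 5.24 CPM in N2B27 (log2 fold change 0.08, adjusted p = 0.797). At day 4 COL1A1 was higher in E8, at 31.9 CPM against 13.3 CPM in N2B27 (adjusted p = 1.2e-05). The other tested fibroblast markers, POSTN and TWIST1, had log2 fold changes of 1.497 and -0.02 (adjusted p = 0.253 and 0.988). COL6A1, a chain of collagen VI, was called higher (1.52, adjusted p = 0.00861). The laminin chain LAMA1 (0.92, adjusted p = 0.0115) and the integrin ITGA6 (0.47) were higher and ITGB5 (-0.56) was lower, all under 2-fold, among 16 tested genes of basement membrane and integrins. TEAD1, the DNA-binding partner of YAP, was called lower (-1.25, adjusted p = 0.00236), and of 8 YAP/TEAD targets AMOTL2 was lower below 2-fold (-0.62, adjusted p = 0.0479), while CYR61 and CTGF had -0.21 and -0.27 (adjusted p = 0.464 and 0.400). Among actin and SRF genes ACTA1 (0.78) and VCL (0.53) passed, both higher, 2 of 15, where 2.94% of all genes tested passed higher. LAMA1, ITGA6, ITGB5, AMOTL2, ACTA1 and VCL missed the threshold in the 6 matched libraries, at adjusted p from 0.0645 for AMOTL2 to 0.263 for ITGA6. Their log2 fold changes there were 0.71 for LAMA1, 0.37 for ITGA6, -0.35 for ITGB5, -0.79 for AMOTL2, 0.68 for ACTA1 and 0.39 for VCL.

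CLEC7A, a pattern recognition receptor gene on chromosome 12 known from myeloid cells, had the largest rise among the genes named by rule. It was at 52.2, 47.9, 19.99 and 31.5 CPM in E8 and at 9.44, 8.90, 4.25 and 6.61 CPM in N2B27, with 4.73 CPM in naive cells. The lowest E8 library lay above the highest N2B27 library, the log2 fold change was 2.39 (SE 0.21, adjusted p = 6.70e-05), and it was 2.55 in the 6 matched libraries. The other higher genes named by rule were the giant muscle gene TTN (1.62), the glycogen phosphatase subunit PPP1R3B (1.59), MX1, COL6A1, the noncoding RNAs LINC01356 (2.25), LINC00937 (1.56) and LINC00458 (1.495), the pseudogenes MTCO1P40 (1.74), MTCO2P22 (1.48) and RPSAP19 (1.70), the small nucleolar RNA SNORD3B-2 (1.47), and AC005062.1 (2.31), AC026403.1 (1.53) and AC073861.1 (1.51). TTN, MTCO2P22, SNORD3B-2 and AC073861.1 lost the call in the 6 matched libraries, at adjusted p of 0.0522 to 0.0549 and log2 fold changes of 1.13, 0.80, 0.96 and 1.07. MTCO1P40 and MTCO2P22 are copies of mitochondrial genes.

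The other lower genes named by rule were PRSS12 (-1.55), a serine protease of nerve cells, PNMA2 (-1.25), SH3D21 (-1.23), the growth factor NRG1 (-1.19), AL928654.3 (-1.18), the guidance ligand SEMA3A (-1.16) and the protease inhibitor TFPI2 (-1.12). In the 6 matched libraries SEMA3A missed the threshold at a fold as large (-1.17, adjusted p = 0.0502) and TFPI2 fell below 2-fold (-0.95). Naive cells held 110.4 CPM of PRSS12, N2B27 27.02 ± 5.32 CPM and E8 9.08 ± 2.47 CPM (SD, n = 4 each). For COL1A2 and PNMA2 the naive level was 0.706 and 0.492 CPM, so N2B27 was further from the naive level than E8.

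MX1, an antiviral GTPase switched on by interferon, was higher in E8, with 144.1, 140.5, 80.2 and 53.1 CPM against 46.0, 65.7, 23.5 and 14.4 CPM in N2B27. Its log2 fold change was 1.62 (SE 0.18, adjusted p = 5.28e-04), and 1.346 in the 6 matched libraries (adjusted p = 0.00164). IFITM1, a membrane protein that blocks virus entry, was also called (1.14, adjusted p = 0.00817), as was the restriction factor TRIM5 (2.80, adjusted p = 0.0154); both were picked after their values were seen, and TRIM5, at 0 to 7 reads in N2B27 and 10 to 29 in E8, missed the threshold in the 6 matched libraries (2.72, adjusted p = 0.0598). IFITM1 was at 380.2, 408.1 and 209.1 CPM in the high-scoring E8 libraries and at 118.7 CPM in the other, and at 226.6 CPM in the high-scoring N2B27 library against 82.7 to 104.7 CPM in the others. In the 6 matched libraries its log2 fold change was 0.69 (adjusted p = 0.0226), and its call was lost in 4 of 18 settings. ISG15, another interferon target looked at after the fact, was at 5.07 CPM in E8 and 4.96 CPM in N2B27 (adjusted p = 0.954).

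The starts of MX1 and IFITM1 are printed because both genes are known interferon targets and were higher together. Capitals mark the interferon element, GAAA and GAAA with 2 bases of any kind between, searched on both strands in the same RefSeq windows.
MX1, chr21:41420308-41420607, plus strand: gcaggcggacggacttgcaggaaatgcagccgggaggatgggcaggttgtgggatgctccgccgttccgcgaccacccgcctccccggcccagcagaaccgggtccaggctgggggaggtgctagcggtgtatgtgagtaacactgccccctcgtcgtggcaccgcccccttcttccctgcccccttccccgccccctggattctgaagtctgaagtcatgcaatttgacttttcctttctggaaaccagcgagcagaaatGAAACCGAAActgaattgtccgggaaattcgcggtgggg
IFITM1, chr11:313790-314089, plus strand: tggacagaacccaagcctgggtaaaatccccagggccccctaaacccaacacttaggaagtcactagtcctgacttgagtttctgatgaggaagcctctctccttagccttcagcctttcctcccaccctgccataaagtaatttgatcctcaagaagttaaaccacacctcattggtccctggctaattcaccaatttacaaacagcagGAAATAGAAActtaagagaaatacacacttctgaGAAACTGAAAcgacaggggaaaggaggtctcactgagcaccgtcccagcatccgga
MX1 held 1 match, starting 12 bases after the start, and IFITM1 held 2, starting 40 and 6 bases before it. Of the windows of all genes tested 2.54% held the element. Among the 45 higher genes with a window 4 did (IFITM1, MX1, TRIM5 and XACT), and among the 35 lower genes 0 did.

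**Figure D4:**
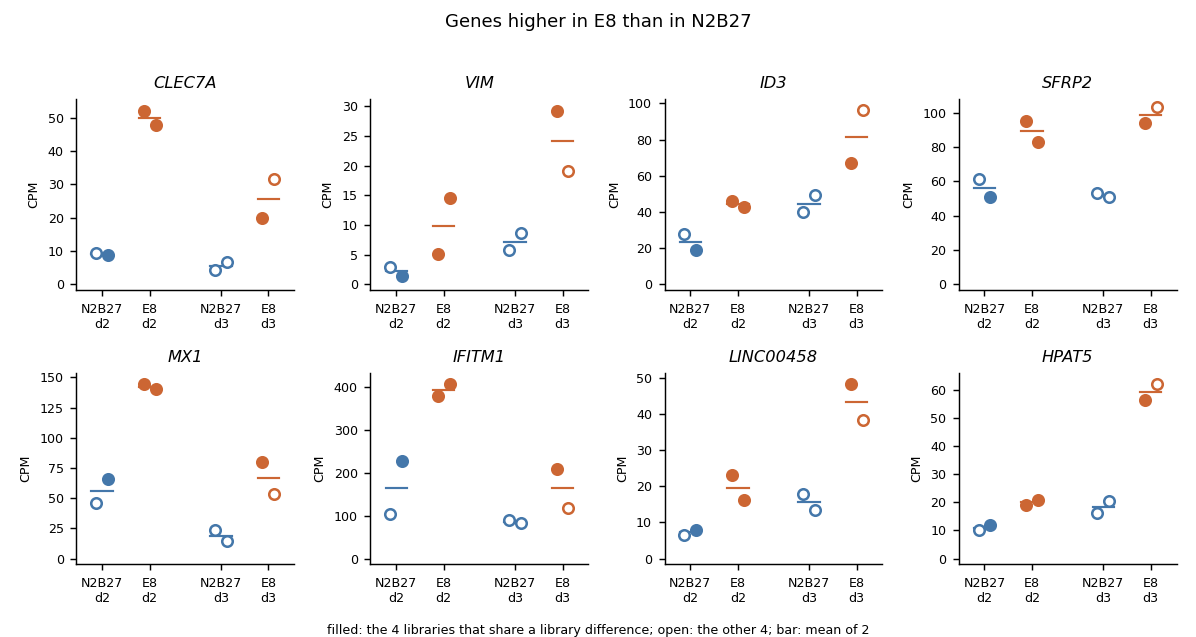
Level (CPM) of 8 genes higher in E8 in each of the 8 libraries by medium and day, with a bar at the mean of 2. CLEC7A lies at 19.99 to 52.2 CPM in E8 and at 4.25 to 9.44 CPM in N2B27, whereas IFITM1 is highest in the filled libraries of both media.

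Day 4 of the same experiment, in 4 libraries outside this comparison, gave a separate reading of the same genes. There 415 genes were called (2.49% of 16674 tested, 1.36% higher and 1.13% lower in E8). Of the 191 genes higher at days 2 and 3, 174 were higher at day 4 (91.1%, beside 50% of all genes) and 57 were called. Of the 60 lower genes 55 were lower (91.7%) and 23 were called. Of the 55 higher pseudogenes 47 were higher at day 4 and 4 were called. At day 4 LEFTY1 had a log2 fold change of -2.29 (adjusted p = 1.00e-09), LEFTY2 -4.92 (adjusted p = 6.62e-11), NODAL -0.85 (adjusted p = 9.68e-04), CLEC7A 2.10 (adjusted p = 8.43e-05), TXNIP -2.34 (adjusted p = 4.41e-11) and VIM 1.81 (adjusted p = 1.24e-05). IFITM1 (0.63, adjusted p = 0.145), TFPI2 (-0.39, adjusted p = 0.114), RPSAP19 (0.22, adjusted p = 0.747) and AC026403.1 (0.08, adjusted p = 0.968) missed the threshold at day 4. So did POU5F1 (0.49, adjusted p = 0.325), SOX3 (-0.27, adjusted p = 0.331), SNORD3B-2 (0.23, adjusted p = 0.841), AC073861.1 (0.85, adjusted p = 0.196), AL928654.3 (-0.48, adjusted p = 0.149), ARGFX (-1.34, adjusted p = 0.172), CNR2 (-0.28, adjusted p = 0.486) and FOXP2 (-0.82, adjusted p = 0.186). The day 4 libraries come from the same experiment and show no library score above 10.1.

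Markers of other cell types were summed over short lists of defining genes. The trophectoderm sum (GATA2, GATA3, CDX2, TFAP2A, KRT7, HAND1) was 7.88 to 18.8 CPM in E8 and 9.38 to 33.5 CPM in N2B27, with 0 of 2 tested members called. GATA3 was at 25.3 and 18.8 CPM in N2B27 and 12.9 and 6.59 CPM in E8 at day 3 (adjusted p = 0.190 over both days). At day 2 it was at 4.82 and 3.85 CPM in N2B27 and 2.40 and 5.67 CPM in E8. Its log2 fold change at day 4 was -0.14 (adjusted p = 0.769). The sums of GATA4, GATA6, SOX17 and PDGFRA (primitive endoderm), of ISL1, GABRP and VTCN1 (amnion) and of PAX6 and SOX1 (neural) stayed at or under 14 CPM, with 0 of these called. Members of the longer lists outside these sums were higher: KRT18, listed with trophectoderm, was at 458.3 CPM in E8 and 459 CPM in N2B27 (adjusted p = 0.846), and NES, listed with neural markers, at 145.2 and 129.4 CPM (adjusted p = 0.284). In bulk RNA fewer cells of a type and less RNA per cell cannot be told apart.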

How the data were processed

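RNA of 38 libraries was measured by 3′ tag sequencing (QuantSeq), and 8 are compared here. Per the labels and the study's methods, the authors aligned and quantified reads with STAR 2.7.10a and Salmon 1.9.0 on hg38 after FastQC 0.11.9, and deposited raw gene-level counts, with no normalization. Strand use in counting is not given in the sources used here. Tags near the 3′ end make counts comparable between samples but not between genes. The counts were fitted in edgeR 4.0.16 (R 4.3.3) with TMM scaling, filterByExpr and the quasi-likelihood test, with day as a covariate, which left 14471 of 57133 genes holding 99.43% of counts. Genes were called at a Benjamini-Hochberg adjusted p under 0.05 and a log2 fold change beyond 1. CPM used TMM sizes over all 38 libraries. Day 4 came from a fit to all 19 groups. Alternatives used DESeq2 1.42.0, other scalings and filters, a replicate block, a library score and left-out libraries; an alternative with prior count 5 was chosen after seeing the data. Genes named by rule were the 15 largest rises and 15 largest falls that were called with 1 sign at both days, reached 20 CPM on the higher side and did not overlap within a day, beside the members of the gene lists. Some genes that the rule or the lists name are not reported here. The members and lists were chosen with earlier results of these data known. Symbols were matched to GENCODE release 44, which covered 13182 tested genes, and promoter windows are RefSeq, GRCh38.p14. The fits over both days, by day and of the difference between days were tested on simulated data that held no library difference. The other steps were not tested in this way. Totals of 3143033 to 5014703 counts per library set a floor of 3 counts at 0.601 to 1.03 CPM, for counting error only.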

Additional observations from a re-analysis of the deposited data

How the results depend on the processing

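Against 251 genes called over days 2 and 3, 489 were called with no filter, 574 in the 19-group fit and 94 in the 6 matched libraries, and the counts with 1 sign at both days were 485, 572 and 94. Leaving out 1 library gave 90 to 495 (90 to 492 with 1 sign): 101 without N2B27 day 2 replicate 1, 108 without E8 day 2 replicate 1, 90 without E8 day 2 replicate 2 and 495 without E8 day 3 replicate 2. At day 2 the count of 151 became 496 with no filter, 758 in the 19-group fit and 0 to 302 with 1 library left out, with 0 without N2B27 day 2 replicate 1, E8 day 2 replicate 1 or E8 day 2 replicate 2. At day 3 the count of 32 became 172 with no filter, 53 in DESeq2, 280 in the 19-group fit and 0 to 92 with 1 library left out, with 0 without N2B27 day 3 replicate 2. The count of list members called was 14, and it was 9 in the 6 matched libraries and 9 to 16 with 1 library left out. The interaction count was 36 in the 19-group fit, and day 4 gave 256 in DESeq2 against 415. DESeq2 called 195 over both days and gave no adjusted p for 78 of the 251. Library totals gave 65.8% of calls higher against 76.1%. With the replicate block 310 genes were called over both days, 25 at day 2 and 13 at day 3; replicate differences of E8 and N2B27 correlated at 0.0198 at day 2 and 0.232 at day 3, so the replicate numbers do not pair the samples. By the call with its 2-fold limit, 1486 values of named genes under alternatives kept their side, 77 lost the call, 31 gained it and 0 reversed. Of 594 values of the 33 named genes that passed the adjusted threshold below 2-fold, 137 did not pass it. The causes were not tested. With 2 libraries a group in 1 experiment, levels near the floor of 3 counts limit the folds of LEFTY2, TBXT, SP5, TRIM5 and LINC01108.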

Other observations

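The genes in this paragraph were chosen after their values were seen. ESRG, HPAT5, LINC-ROR and LINC01108 are noncoding RNAs known from pluripotent cells. ESRG was at 199.0, 167.7, 305.4 and 328.4 CPM in E8 and at 109.3, 107.3, 169.5 and 129.8 CPM in N2B27, a log2 fold change of 0.97 (SE 0.12, adjusted p = 8.75e-04 in edgeR), higher in E8 but under 2-fold. HPAT5 had 1.37 (adjusted p = 0.00170), LINC-ROR 2.57 (adjusted p = 7.43e-04) and LINC01108 2.905 (adjusted p = 0.00423), the last on 1 to 6 reads in N2B27 and 9 to 31 in E8. At day 4 the log2 fold changes of ESRG, HPAT5, LINC-ROR and LINC01108 were 1.83, 1.32, 2.54 and 2.80. B2M, the light chain of class I antigen presentation, was higher below 2-fold at 81.1 ± 7.75 CPM in E8 and 45.3 ± 5.17 CPM in N2B27 (SD, n = 4 each; adjusted p = 0.00217). TMSB4X, an actin-binding peptide gene, was called higher (1.19, adjusted p = 5.28e-04), and ODC1, the first enzyme of polyamine synthesis, was called lower (-1.04, adjusted p = 0.00236), with -0.83 in the 6 matched libraries and -0.92 with the library score, and lost the call in 5 of 18 settings.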
